A study of Mus musculus with 4 samples.

Results

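The proteasome genes were taken as every gene whose symbol begins with Psm, a letter from a to g and a digit, which gave 49 of the 22609 genes in the count files. Of these, 48 encode a subunit, assembly factor, activator or inhibitor of the proteasome, and the remaining gene, Psmc3ip, encodes a meiotic recombination protein that shares the letters of its name only. The filter on low counts passed 48 of the 49, among them Psmc3ip, and left out Psmb11. RNA came from the hippocampus of ovariectomized C57BL/6 mice that all carried estradiol (E2) mini pumps and had all undergone global cerebral ischemia (GCI), in which blood supply to the brain is interrupted and then restored, with tissue taken 24 h into reperfusion. The FLOXED genotype, which carries the targeted allele without its deletion, was set against PELP1 FBKO mice, a forebrain knockout of the estrogen receptor co-regulator PELP1, with 2 libraries for each genotype. The age of the mice, the driver of the deletion and the number of animals behind a library are not given in the sources used here. With no group free of ischemia or of estradiol, a genotype difference that precedes them cannot be told apart from one that follows.

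The proteasome is the large protease that degrades proteins tagged with ubiquitin. Its core, called the 20S particle, is a barrel of stacked rings of alpha and beta subunits with the proteolytic sites inside, and the 19S particle that caps it has a base of ATPases that unfold the substrate and a lid that removes the ubiquitin. In cells exposed to interferon, 3 catalytic beta subunits are replaced by immunoproteasome subunits that favour peptides presented on MHC class I. Most proteasome genes are expressed together, and the transcription factor NFE2L1 raises them when proteolysis falls short.

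Promoter sequences are shown first because the subunit genes are known to share control elements. They were read from RefSeq windows on the GRCm38.p6 build, which is newer than the mm9 build of the count files, and only the bases before the start site were searched, 250 in each window. At least 1 window was found for 41 of the 49 genes. The 4 shown are Psmb5, which encodes a constitutive catalytic subunit, Psmd12, a lid gene of the 19S particle, Psmb3, the tested member with the lowest log2 fold change in PELP1 FBKO, and Psmb9, an immunoproteasome gene. Each run gives the 150 bases before the start site (for Psmd12 all 250), 5′ to 3′ on the gene's strand, with the matched motif in capitals. In Psmb5 (chr14:54617996-54618145, minus strand) and Psmd12 (chr11:107479278-107479527, plus strand) the capitals mark TGACNNNGC or its reverse complement, the core of the antioxidant response element that NFE2L1 and NFE2L2 are known to bind. In Psmb3 (chr11:97703284-97703433, plus strand) and Psmb9 (chr17:34187331-34187480, minus strand) they mark CCAAT or its reverse complement, the letters bound by the factor NF-Y.
Psmb5: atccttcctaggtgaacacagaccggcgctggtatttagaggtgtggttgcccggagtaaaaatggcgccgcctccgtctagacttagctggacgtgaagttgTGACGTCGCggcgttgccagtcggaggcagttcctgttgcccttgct
Psmd12: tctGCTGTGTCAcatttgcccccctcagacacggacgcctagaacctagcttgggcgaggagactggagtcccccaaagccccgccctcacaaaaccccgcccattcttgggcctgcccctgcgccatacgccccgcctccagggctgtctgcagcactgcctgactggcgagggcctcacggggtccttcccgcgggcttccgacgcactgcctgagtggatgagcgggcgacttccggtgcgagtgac
Psmb3: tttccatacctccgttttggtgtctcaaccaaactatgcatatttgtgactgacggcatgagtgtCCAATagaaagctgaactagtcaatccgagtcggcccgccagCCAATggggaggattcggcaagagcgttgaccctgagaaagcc
Psmb9: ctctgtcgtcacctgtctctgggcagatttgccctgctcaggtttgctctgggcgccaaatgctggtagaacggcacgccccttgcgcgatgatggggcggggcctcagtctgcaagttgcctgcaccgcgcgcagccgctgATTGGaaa

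Across all 44 windows of these genes 3 of the 4 motifs were about as common as elsewhere. The antioxidant response element core was present in 11.4% of the members' windows and in 10.2% of all 32851 windows, searched on both strands. The CCAAT box was present in 34.1% against 33.8%, and the heat shock element core GAANNTTC in 6.82% against 6.69%. The core of the interferon-stimulated response element, searched as GAAA repeated after any 2 bases, was more frequent than elsewhere, at 6.82% against 2.98%, but from 3 windows, those of Psmb3, Psmd4 and Psmd9. No window of Psmb8, Psmb9 or Psmb10 held those letters. No matches of different motifs overlapped in a member's window, and a match describes the sequence only.

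The 4 libraries held between 17524594 and 22447658 reads assigned to genes, and the members took between 87325 and 104231 of them. Depth therefore limited few of these genes: the median tested member had 2464 reads in FLOXED 1, the shallowest library. Pelp1, the targeted gene, was at 26.7 and 26.3 CPM (counts scaled to library size, with TMM factors) for FLOXED, against 17.95 and 17.3 CPM for PELP1 FBKO, for a log2 fold change of -0.59 (SE 0.149) that did not pass the threshold of 0.05 (edgeR quasi-likelihood, adjusted p = 0.130). Reads with more than one possible position, which made up between 38.5% and 47.7% of all HTSeq records and were most frequent in FLOXED 1, were not counted, so genes with processed pseudogenes may be undercounted. In the RefSeq annotation, the spans of 13 of the 49 genes overlap another gene: Psma3, Psma4, Psma6, Psmb5, Psmb7, Psmc3ip, Psmc5, Psmd1, Psmd10, Psmd13, Psme1, Psme4 and Psmf1. The count files hold an overlapping gene under its RefSeq symbol for Psma4, Psmb5, Psmc3ip, Psmd1, Psmd10 and Psme4 only. Counts may be less certain where exons overlap, which was not tested. The markers listed for hippocampal excitatory neurons, Neurod6, Prox1, Hpca and Fibcd1 among them, were all detected, which does not by itself identify the tissue.

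Proteasome transcripts made up a smaller part of the hippocampal RNA in PELP1 FBKO than in FLOXED. Their share of all gene reads was 0.592% in FLOXED 1 and 0.475% in FLOXED 2, against 0.389% in PELP1 FBKO 1 and 0.442% in PELP1 FBKO 2. The genotypes did not overlap in this share, and FLOXED 1 stood further from FLOXED 2 than FLOXED 2 stood from PELP1 FBKO 2. Of the 48 tested genes, 47 had a log2 fold change below 0, where 50.0% of all 14978 tested genes did. Their median was -0.34, against 0.00015 for all tested genes, and the central 50% of members lay between -0.44 and -0.22, against -0.18 and 0.22. Members in PELP1 FBKO stood at a median of 78.9% of their FLOXED level. In tissue RNA, fewer cells of a type and less RNA per cell cannot be told apart.

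No single proteasome gene passed the threshold. By edgeR's quasi-likelihood test with Benjamini-Hochberg adjustment over all genes, 0 members were called lower and 0 higher, as for the whole table (0% in each direction). The smallest adjusted p among the members was 0.142, for Psmd14, and the largest was 0.980, for Psmg4. At an unadjusted p under 0.05, 24 members were lower, where 5.55% of all tested genes were, and 0 were higher, against 10.1% of all tested genes. DESeq2 called 1 member, Psmd14 again (log2 fold change -0.51, SE 0.161, adjusted p = 0.0469), with 0.895% of all genes called lower, and 0 members higher, with 2.2% of all. In 38 of the tested members both PELP1 FBKO libraries lay below both FLOXED libraries, where 23.0% of all tested genes showed this. The opposite held for 1 member, Psma8, and for 25.4% of all tested genes.

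**Figure D1:**
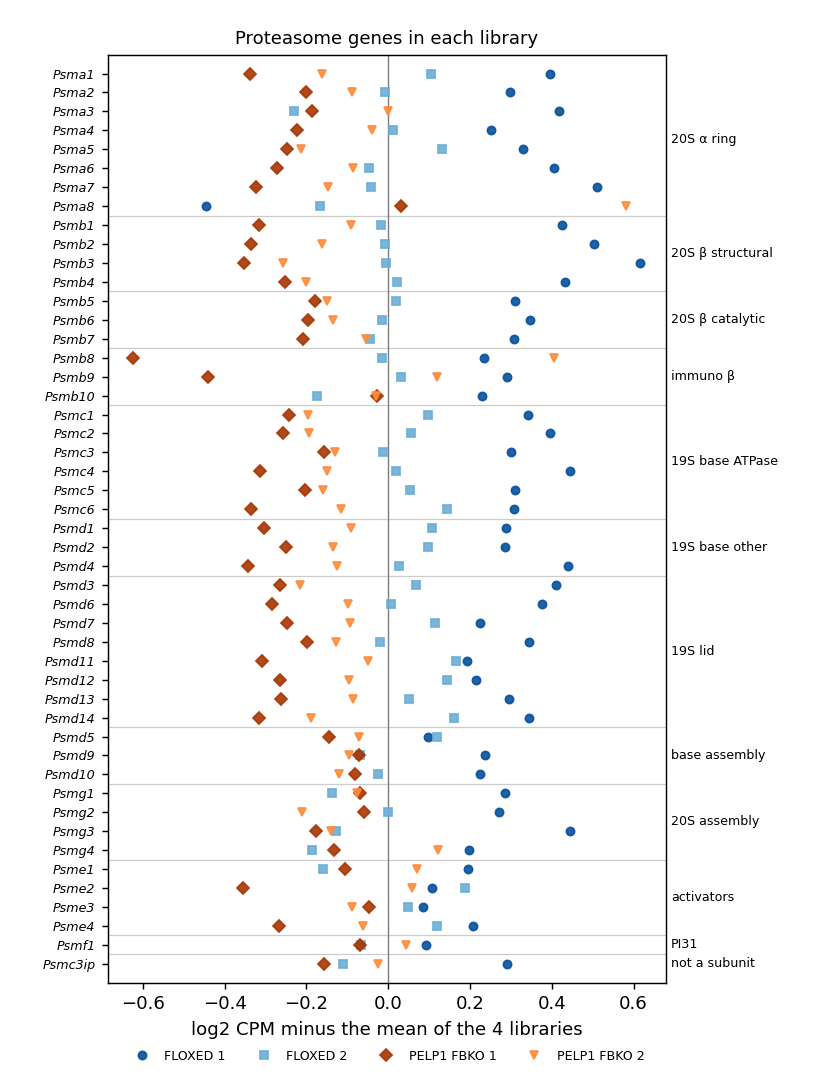
Level of each tested gene in each library, as log2 CPM minus the mean of the 4 libraries (x axis), with genes in rows grouped by role. FLOXED 1 (dark blue circles) is the highest library for 44 of the 48 genes and PELP1 FBKO 1 (dark orange diamonds) the lowest for 38.

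The libraries were ordered alike across most members, as the plot of levels by library shows. FLOXED 1 was the highest of the 4 libraries in 44 of 48 members, where it was the highest for 32.6% of all tested genes. PELP1 FBKO 1 was the lowest in 38, where it was the lowest for 26.1% of all. Relative to each gene's mean over the libraries, the median member stood at 0.30 and 0.0087 in the FLOXED libraries, numbered 1 and 2, and at -0.25 and -0.096 in those of PELP1 FBKO on the log2 scale. The size of the genotype difference depended on FLOXED 1. Without it the median log2 fold change was -0.18, 40 of 49 members were below 0, where 49.8% of all genes were, and 5 members rather than 24 had an unadjusted p under 0.05 and were lower, with 3.6% of all genes doing so. That count was 2 without PELP1 FBKO 1, with 3.26% of all genes, and 14 without PELP1 FBKO 2, with 5.78%. Without FLOXED 2, by contrast, 5 members were called lower (Psma7, Psmb2, Psmb3, Psmc4 and Psmd3), with 1.41% of all genes, and 35 were lower at an unadjusted p under 0.05, with 12.2%. With the replicate number as a block that count was 13, with 4.86% of all genes, and with the numbers crossed, an alternative chosen after seeing the data, it was 30, with 8.27%.

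In 9 members the gap between the genotypes exceeded the difference between libraries within either genotype, where 6.1% of all tested genes met this in the lower direction. They were Psma5, Psmc1, Psmc6, Psmd2, Psmd5, Psmd7, Psmd12, Psmd14 and Psme3. The 19S particle gives 6 of the 9 and the 20S core 1. The remaining pair are Psmd5, a chaperone of base assembly, and Psme3, an activator gene.

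The alpha ring of the 20S core, whose subunits form the gate of the barrel, was represented by 8 genes, and 7 had a log2 fold change below 0. The median of the 8 was -0.33, and it was -0.14 without FLOXED 1. At an unadjusted p under 0.05, 3 were lower, where 5.55% of all tested genes were. Psma1 was at 195 and 159 CPM for FLOXED, and 117 and 132 CPM for PELP1 FBKO. FLOXED 1 was the highest and PELP1 FBKO 1 the lowest, and the genotypes did not overlap. Its log2 fold change was -0.50 (SE 0.150, edgeR adjusted p = 0.171). Psma5 was at 23.3 and 20.3 CPM against 15.6 and 16.0 CPM, so that the libraries of each genotype lay close together, for a log2 fold change of -0.46 (SE 0.161, edgeR adjusted p = 0.229). Psma7 showed the reverse arrangement: at 204 and 139 CPM against 114 and 129 CPM, its difference within FLOXED was larger than that between FLOXED 2 and either PELP1 FBKO library. Psma3 was the ring member in which the genotypes overlapped, at 20.6 and 13.1 CPM against 13.6 and 15.4 CPM.

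The structural beta subunits, which have no proteolytic site of their own, had the most negative median of the role classes with more than 1 tested gene, -0.49. All 4 of them were lower at an unadjusted p under 0.05 and did not overlap between genotypes. Of all tested genes, 5.55% were lower at that p and 23.0% lay lower without overlap. Psmb3 was at 44.3 and 28.8 CPM in the FLOXED libraries and 22.6 and 24.2 CPM in those of PELP1 FBKO. The PELP1 FBKO libraries were close to each other, while FLOXED 1 stood far above FLOXED 2. The log2 fold change was -0.64 (SE 0.211, edgeR adjusted p = 0.208), and it was -0.30 without FLOXED 1. Psmb4 was at 275 and 207 CPM against 171 and 177 CPM, for a log2 fold change of -0.47 (SE 0.164, edgeR adjusted p = 0.235). Without FLOXED 1 the median of the 4 was -0.24 and no longer the most negative. The 19S lid then had -0.30, the base ATPases -0.27 and the other base subunits -0.29. With length and GC offsets on all 4 libraries, the structural beta subunits had -0.33 and were not the most negative either. The base ATPases then had -0.35, the other base subunits -0.38 and the lid -0.28.

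The constitutive catalytic subunits had a median of -0.33, which was -0.15 without FLOXED 1 and -0.18 with length and GC offsets. Psmb5, which carries the chymotrypsin-like activity, was at 62.1 and 50.8 CPM for FLOXED, and 44.2 and 45.2 CPM for PELP1 FBKO, giving a log2 fold change of -0.33 (SE 0.145, edgeR adjusted p = 0.320). Psmb6, with the caspase-like activity, was at 160 and 125 CPM against 110 and 115 CPM (-0.34, SE 0.152, edgeR adjusted p = 0.333). Psmb7, with the trypsin-like activity, was at 239 and 187 CPM against 167 and 186 CPM (-0.27, SE 0.158, edgeR adjusted p = 0.449). In each of the 3 the genotypes stayed apart, for Psmb7 only by the narrow step from 186 to 187 CPM.

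**Figure D2:**
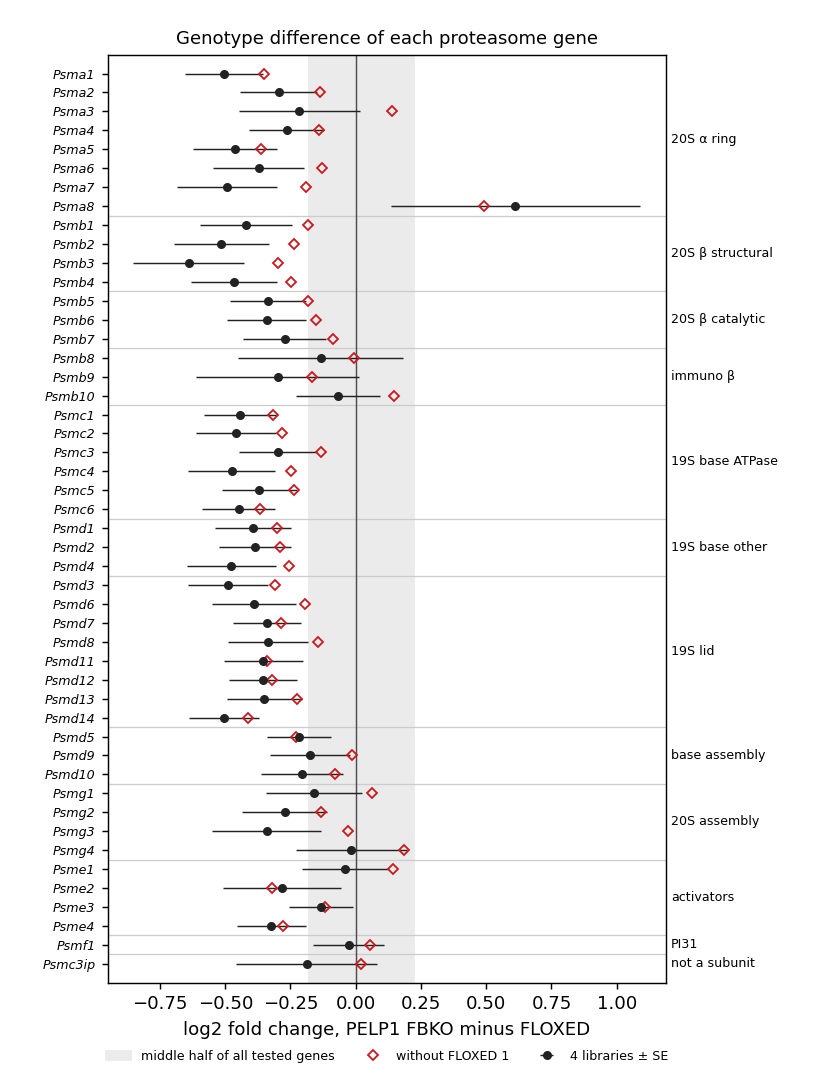
Log2 fold change of each tested gene, PELP1 FBKO minus FLOXED, with its standard error (black) and the value without FLOXED 1 (red diamonds). The grey band spans the central 50% of all tested genes, from -0.18 to 0.22. All 17 members of the 19S particle that match the symbol pattern lie below the band with 4 libraries.

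Members of the 19S particle gave a more uniform picture than those of the 20S core. Adrm1 and Shfm1, 19S subunit genes outside the symbol pattern, are given below with the related lists. All 17 tested members of the particle had a log2 fold change below 0, between -0.50 and -0.30, with a median of -0.39. In all 17 the genotypes did not overlap, with FLOXED 1 the highest and PELP1 FBKO 1 the lowest library. At an unadjusted p under 0.05, 15 were lower, where 5.55% of all tested genes were. Of all tested genes, 23.0% lay lower without overlap. FLOXED 1 was the highest for 32.6% of all and PELP1 FBKO 1 the lowest for 26.1%. Without FLOXED 1 the median of the 17 was -0.28, and for the 20S core it went from -0.37 to -0.18. Whether the particles differ in this was not tested.

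Among the base ATPases, which unfold substrates and thread them into the core, all 6 had log2 fold changes below 0, with a median of -0.45 that was -0.27 without FLOXED 1. Psmc1 was at 157 and 132 CPM in the FLOXED libraries and 105 and 108 CPM in those of PELP1 FBKO, giving a log2 fold change of -0.44 (SE 0.137, edgeR adjusted p = 0.185). Psmc6 was at 160 and 143 CPM against 102 and 119 CPM (-0.45, SE 0.140, edgeR adjusted p = 0.189). For both of these, on the log2 scale, the FLOXED libraries were closer to each other than to either PELP1 FBKO library. The smallest difference in the ring was that of Psmc3, at 274 and 221 CPM against 199 and 203 CPM.

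Of the other base subunits, Psmd1 and Psmd2 encode the large scaffold proteins that dock ubiquitin carriers, and Psmd4 encodes a ubiquitin receptor. Psmd2 was at 248 and 218 CPM for FLOXED, and 171 and 186 CPM for PELP1 FBKO, giving a log2 fold change of -0.39 (SE 0.138, edgeR adjusted p = 0.241). Psmd4 was at 206 and 155 CPM against 120 and 139 CPM (-0.48, SE 0.170, edgeR adjusted p = 0.241), with a wide step between the FLOXED libraries.

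In the lid, 7 of 8 genes were lower at an unadjusted p under 0.05, where 5.55% of all tested genes were. The median of the 8 was -0.36. Psmd14 encodes the metalloprotease that cleaves ubiquitin chains from the substrate. It was at 151 and 133 CPM in the FLOXED libraries and 96.0 and 105 CPM in those of PELP1 FBKO. Each library lay close to its partner, and the gap between genotypes, 0.35 on the log2 scale, was larger than the 0.18 within either. The log2 fold change was -0.50 (SE 0.134, edgeR adjusted p = 0.142), and at -0.41 without FLOXED 1 it had the lowest value of the 49 members there. Over 14 alternatives, the adjusted p of Psmd14 ranged from 0.0469 (DESeq2) to 0.463. Psmd3, a lid scaffold gene, was at 245 and 194 CPM against 154 and 159 CPM (-0.49, SE 0.153, edgeR adjusted p = 0.188). Psmd11 and Psmd12 hardly differed between the FLOXED libraries, at 38.1 and 37.4 CPM and at 140 and 133 CPM, and stood at 26.9 and 32.2 CPM and at 101 and 113 CPM in PELP1 FBKO.

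Genes for assembly factors, which help build the particles and are not part of the finished protease, lay closer to the bulk of genes. The chaperones of the 19S base, Psmd5, Psmd9 and Psmd10, had a median of -0.21, and those of the 20S core, Psmg1 to Psmg4, had -0.22. Of these 7 genes 0 had an unadjusted p under 0.05. Psmd5 was at 71.9 and 73.1 CPM for FLOXED, and 60.8 and 64.0 CPM for PELP1 FBKO (-0.22, SE 0.123, edgeR adjusted p = 0.438). Psmd10, also known as gankyrin, was at 27.1 and 22.8 CPM against 21.9 and 21.4 CPM (-0.21, SE 0.159, edgeR adjusted p = 0.569). Psmg2 was at 28.9 and 23.9 CPM against 23.0 and 20.7 CPM (-0.27, SE 0.164, edgeR adjusted p = 0.465). Psmg3 was high in FLOXED 1 alone, at 25.3 CPM against 17.0, 16.4 and 16.8 CPM in the other libraries, and its log2 fold change of -0.34 (SE 0.210, edgeR adjusted p = 0.472) was -0.031 without that library. Without FLOXED 1 the medians were -0.078 for the base chaperones and 0.016 for those of the core.

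For the immunoproteasome genes the libraries of the 2 genotypes were intermixed. Psmb8, the counterpart of Psmb5, was at 11.6 and 9.73 CPM in the FLOXED libraries and 6.39 and 13.03 CPM in those of PELP1 FBKO. The lowest and the highest of these values are those of the PELP1 FBKO libraries. Its log2 fold change was -0.13 (SE 0.315, edgeR adjusted p = 0.879). Psmb9, the counterpart of Psmb6, was at 3.31 and 2.77 CPM against 1.99 and 2.94 CPM (-0.30, SE 0.311, edgeR adjusted p = 0.690), from 44 to 60 reads a library. Psmb10, the counterpart of Psmb7, was at 54.6 and 41.3 CPM against 45.7 and 45.6 CPM (-0.07, SE 0.162, edgeR adjusted p = 0.882). The median of the 3, -0.13, was -0.60 without PELP1 FBKO 2 and -0.0071 without FLOXED 1. The genotypes overlapped in all 3, and FLOXED 1 was again the highest for Psmb9 and Psmb10.

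**Figure D3:**
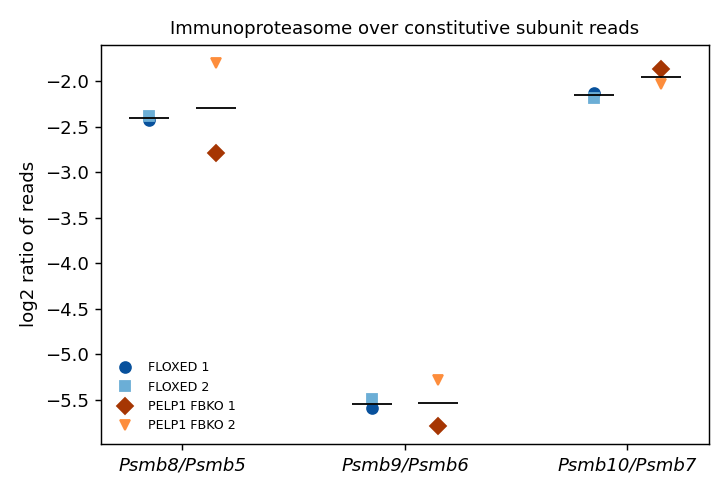
Log2 ratio of the reads of each immunoproteasome gene to those of the constitutive subunit gene it replaces (y axis), by library, with bars at the genotype means. For Psmb8/Psmb5 and Psmb9/Psmb6 the PELP1 FBKO libraries lie on either side of the FLOXED libraries, and for Psmb10/Psmb7 both lie above them.

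A ratio of reads within a library does not depend on how libraries are scaled, so each immunoproteasome gene was set against the gene it replaces. The log2 ratio of Psmb8 to Psmb5 was -2.42 and -2.38 in FLOXED, close to each other, and -2.79 and -1.79 in PELP1 FBKO. That of Psmb9 to Psmb6 was -5.60 and -5.49 against -5.78 and -5.29. In both pairs PELP1 FBKO 1 had the lowest ratio and PELP1 FBKO 2 the highest. The log2 ratio of Psmb10 to Psmb7 was -2.13 and -2.18 in FLOXED and -1.87 and -2.02 in PELP1 FBKO, so that the genotypes did not overlap, with a difference of 0.21. The exact two-sided permutation p over the 4 libraries was 0.333 for this pair and 1 for the other pairs, and 0.333 is the smallest that 2 libraries against 2 allow. The 3 pairs were one family, and none could pass any adjustment. Averaged over the pairs, the difference was 0.11, which was -0.11 without PELP1 FBKO 2 and 0.33 without PELP1 FBKO 1.

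Psme1 and Psme2 encode the interferon-inducible PA28 subunits, which open the gate of the core without ATP. Psme1 was at 44.2 and 34.6 CPM for FLOXED, and 35.9 and 40.6 CPM for PELP1 FBKO, overlapping between genotypes (-0.04, SE 0.164, edgeR adjusted p = 0.931). Psme2 was at 7.24 and 7.66 CPM against 5.26 and 7.004 CPM (-0.28, SE 0.225, edgeR adjusted p = 0.581). Psme3, the nuclear PA28 gamma gene, had a small but orderly difference, at 141 and 137 CPM against 129 and 125 CPM (-0.13, SE 0.123, edgeR adjusted p = 0.638). Psme4, which encodes the large activator PA200, was at 76.6 and 72.2 CPM against 55.2 and 63.7 CPM (-0.32, SE 0.134, edgeR adjusted p = 0.298), and it was the only activator gene with an unadjusted p under 0.05. Psmf1, for the inhibitor PI31, was at 47.0 and 42.1 CPM against 42.0 and 45.5 CPM, with overlap and a log2 fold change of -0.03 (SE 0.137, edgeR adjusted p = 0.947).

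The tissue-restricted members were near the limit of detection. Psma8, the alpha subunit gene of the testis, had 8, 12, 14 and 19 reads in FLOXED 1, FLOXED 2, PELP1 FBKO 1 and PELP1 FBKO 2, or 0.456, 0.554, 0.635 and 0.931 CPM, and it was the only tested member above 0 (0.61, SE 0.478, edgeR adjusted p = 0.574). Psmb11, which encodes the thymus-specific catalytic subunit, had 4, 10, 14 and 6 reads and was not tested. Psmc3ip, the gene that is no proteasome component, was at 4.45 and 3.37 CPM in the FLOXED libraries and 3.26 and 3.58 CPM in those of PELP1 FBKO (-0.19, SE 0.269, edgeR adjusted p = 0.781).

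Levels of different subunits can be compared only per length. Per kilobase of each gene's longest GENCODE transcript, FLOXED means of the 20S core ran from 203.6 CPM for Psmb4 down to 5.93 for Psma3 among the generally expressed genes, with Psma6 at 169, Psmb2 at 158, Psma5 at 17.6 and Psmb3 at 24.2. These subunits stand in equal number in the particle, and the parts of uncounted multiply placed reads and of the choice of transcript in this spread were not tested. The 3 immunoproteasome genes stood at 36.6 CPM per kilobase for Psmb10, 5.59 for Psmb8 and 1.05 for Psmb9 in FLOXED, below the constitutive catalytic genes at 147 for Psmb6, 74.8 for Psmb7 and 62.8 for Psmb5. In PELP1 FBKO the same order held among the 6 genes.

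**Figure D4:**
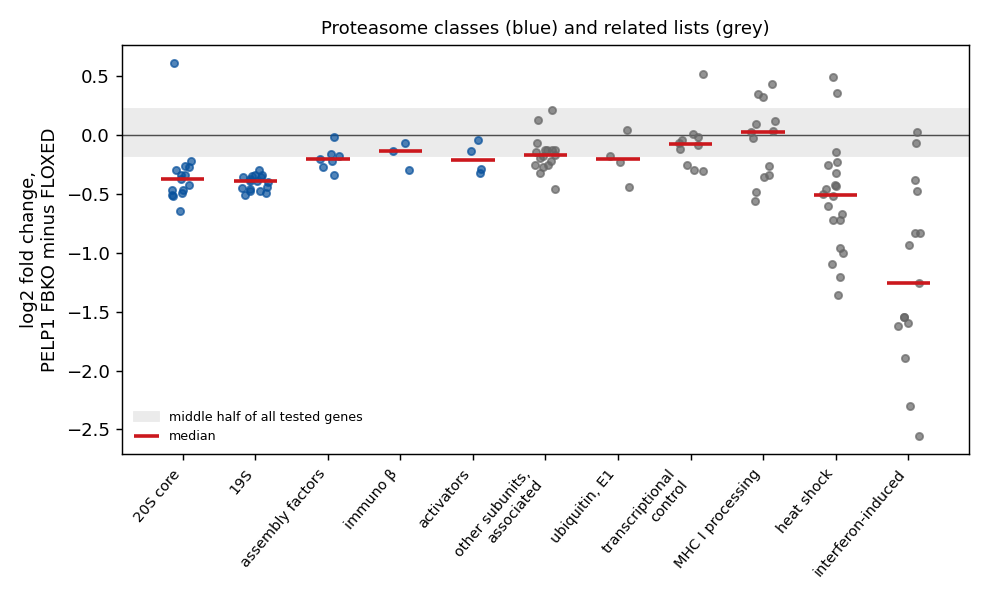
Log2 fold change, PELP1 FBKO minus FLOXED, of tested genes in proteasome classes (blue points) and in related lists (grey points), with the median of each as a red bar. The grey band spans the central 50% of all tested genes. Medians run from 0.03 for MHC class I processing to -1.25 for interferon-induced genes.

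Genes that work with the proteasome but lie outside its symbol pattern had log2 fold changes nearer to 0 as a list. A list of 17 other subunits and associated proteins had a median of -0.17, with 15 below 0, 1 lower and 0 higher at an unadjusted p under 0.05, and 0 past the threshold. The member with the smallest p was Adrm1, the ubiquitin receptor of the 19S base, at 14.9 and 12.9 CPM for FLOXED, and 10.3 and 9.84 CPM for PELP1 FBKO (-0.46, SE 0.178, edgeR adjusted p = 0.269). The redox protein gene Txnl1, which binds the 19S particle, had -0.32 (SE 0.138), and the shuttle genes Rad23b and Ubqln1 had -0.27 (SE 0.132) and -0.25 (SE 0.130). Pomp, whose product is needed to mature the catalytic beta ring, overlapped between genotypes, at 171 and 128 CPM against 127 and 139 CPM. Shfm1 overlapped too, unlike the 19S genes of the symbol pattern, at 82.8 and 63.1 CPM against 56.2 and 66.2 CPM (-0.25, SE 0.167).

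The list of ubiquitin and E1 enzyme genes, 4 as reported here, had a median of -0.20 (-0.11 without FLOXED 1), with 3 below 0 and 0 lower or higher at an unadjusted p under 0.05. Ubb, a polyubiquitin gene, was at 269 and 203 CPM against 199 and 203 CPM (-0.23, SE 0.163), with FLOXED 1 apart from the other 3 libraries. Rps27a, which encodes ubiquitin fused to a ribosomal protein, had -0.44 (SE 0.303), from few reads. Uba1, the main ubiquitin-activating enzyme gene, had -0.17 (SE 0.140), and Uba6, for the second such enzyme, had 0.04 (SE 0.162).

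The list of 10 regulators of proteasome genes had a median of -0.07 and 8 members below 0, with 0 lower and 1 higher at an unadjusted p under 0.05. Nfe2l1 was at 381 and 436 CPM in the FLOXED libraries and 409 and 385 CPM in those of PELP1 FBKO, with overlap and a log2 fold change of -0.04. Nfe2l2 was the higher gene, at 23.4 and 23.3 CPM against 27.1 and 39.9 CPM (0.52, SE 0.199, edgeR adjusted p = 0.266). Stat3 stood at 119 and 129 CPM against 74.7 and 126 CPM (-0.31, SE 0.226), with PELP1 FBKO 1 apart from the rest. Ddi2, whose protease product activates NFE2L1, had -0.29 (SE 0.230) and Hsf1, the heat shock factor gene, had -0.25 (SE 0.141).

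The list of MHC class I peptide processing, 13 genes with the regulator gene Irf1 among them, had a median of 0.03. That median was -0.12 without FLOXED 1 and -0.09 without PELP1 FBKO 2. At an unadjusted p under 0.05, 1 gene was lower and 1 higher. H2-D1 was at 39.0 and 40.5 CPM for FLOXED, and 45.0 and 62.7 CPM for PELP1 FBKO (0.44, SE 0.176), while Irf1, an activator of immunoproteasome genes, was at 16.7 and 19.1 CPM against 11.3 and 14.4 CPM (-0.48, SE 0.188). The peptide transporter gene Tap1 had -0.56 (SE 0.258) and the chaperone gene Calr had -0.35 (SE 0.159). None passed the threshold, with edgeR adjusted p between 0.273 and 0.346 for these 4.

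The lists of heat shock and interferon-induced genes had medians below 0 as well, with PELP1 FBKO 1 often the lowest library. Heat shock genes had a median of -0.51 over 20, with 12 lower and 1 higher at an unadjusted p under 0.05. Of all tested genes, 5.55% were lower and 10.1% higher at that p. PELP1 FBKO 1 was the lowest library for 18 of the 20 and for 26.1% of all tested genes. FLOXED 1 was the highest for 13 of the 20 and for 32.6% of all. The summed level of the heat shock genes was 7135 and 6597 CPM in FLOXED and 4368 and 5193 CPM in PELP1 FBKO. The heat shock median was -0.35 without PELP1 FBKO 1 and -0.75 without PELP1 FBKO 2. The cochaperone genes Hsph1, Hspe1 and Ahsa1 had -0.96 (SE 0.230), -0.998 (SE 0.245) and -0.67 (SE 0.161), and Hsp90aa1 had -0.72 (SE 0.152). Interferon-induced genes had a median of -1.25 over 15, with 7 lower at an unadjusted p under 0.05, and summed levels of 263 and 347 CPM against 106 and 239 CPM. All 15 were at their lowest in PELP1 FBKO 1, but only 2 were at their highest in FLOXED 1, unlike most proteasome genes. Their median was -0.52 without PELP1 FBKO 1 and -2.20 without PELP1 FBKO 2. Rsad2 had -2.55 (SE 0.328) and Ifi44 had -1.89 (SE 0.269), and Irf7 and Isg15 had -1.62 (SE 0.457) and -1.60 (SE 0.508). For Isg15 the value was -0.92 when PELP1 FBKO 1 was left out and -2.93 when PELP1 FBKO 2 was, and Irf7 moved likewise, to -0.9995 and -2.76. In both lists 0 genes passed edgeR's threshold in the main fit. DESeq2 called 7 heat shock and 2 interferon-induced genes lower, with 0.895% of all genes called lower. Other edgeR fits of the 4 libraries did call Hsp90aa1 lower. Its edgeR adjusted p was 0.0385 without the filter on low counts and 0.0374 with length and GC offsets. Rsad2 lay at the threshold (edgeR adjusted p = 0.0501), and over the 14 alternatives that value lay anywhere between 6.93e-17 and 0.209. With the replicate number as a block, 11 interferon-induced and 6 heat shock genes were called lower, with 1.2% of all genes. The part of these responses in the proteasome difference was not tested.

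The lists of glial and vascular markers had medians above 0. All 8 oligodendrocyte markers were above 0 (median 0.87, summed level 2904 and 3702 CPM against 5801 and 6222 CPM), as were all 8 astrocyte markers (median 0.41, 5854 and 6678 CPM against 7494 and 9404 CPM) and all 8 endothelial markers (median 0.42, 132 and 186 CPM against 231 and 224 CPM). The endothelial median was 0.19 without FLOXED 1 and 0.80 without FLOXED 2. Of 16 microglia and macrophage markers 14 were above 0, with a median of 0.31 and summed levels of 970 and 865 CPM against 999 and 1422 CPM. That median was 0.086 without PELP1 FBKO 2, 0.18 without FLOXED 2 and 0.60 without PELP1 FBKO 1. Of 8 excitatory neuron markers 6 were below 0, with a median of -0.47 and summed levels of 8236 and 8434 CPM against 8505 and 6293 CPM, and the median was -0.26 without PELP1 FBKO 2. These markers did not move alike: Prox1 had 0.93 (SE 0.196) and Camk2a 0.09 (SE 0.211), while the lowest, Grp, had -1.09 (SE 0.250). The 7 interneuron markers had a median of 0.25 with 6 above 0, from 1043 and 974 CPM to 1261 and 1328 CPM, and the median was 0.15 without PELP1 FBKO 1 and 0.16 without FLOXED 2. Of 8 choroid plexus markers, the 5 tested had a median of -0.08, with 2 above 0 and, leaving out 1 library at a time, a range from -0.50 to 0.39. Ttr, the most abundant of them, was at 324 and 67.5 CPM in FLOXED and 21.4 and 33.9 CPM in PELP1 FBKO, while the other 7 summed to between 29.3 and 30.7 CPM in every library. None of the markers was at 0 in every library, and their part in the proteasome difference was not tested.

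Transcript length differed between the members and other genes, with a median of 1.90 kb for the longest transcript of tested members and 3.42 kb over all tested genes. With offsets for transcript length and GC content in each library, the median log2 fold change of the members was -0.26, that of the 20S core -0.26 and that of the 19S particle -0.33. The offsets shifted the median of the core more than that of the 19S particle, which was -0.39 without them.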

How the data were processed

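RNA from 4 hippocampal libraries was sequenced as single reads. The deposited values are raw read counts per gene symbol, made by the authors with CASAVA 1.8.2, TopHat2 2.0.8b and HTSeq on the mm9 build, per the submitters' processing notes. Annotation and strand setting are not given in the sources used here, and the series text names a human build although the symbols are those of mouse. Whether libraries of one genotype stem from separate animals is not stated, so the p-values measure only how these samples vary, which may be technical. HTSeq's summary rows stayed out.

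Counts were fitted with edgeR 4.0.16 in R 4.3.3 (TMM, filterByExpr, quasi-likelihood F test of genotype, Benjamini-Hochberg adjustment over 14978 genes, threshold 0.05), checked on simulated data. Standard errors came from the F statistic. DESeq2 1.42.0, limma-voom (limma 3.58.1), other scalings and filters, a replicate block, length and GC offsets (GENCODE vM21, 98.9% of tested genes) and leaving out each library were alternatives. The members and lists were chosen with earlier results of these data known, and 3 genes of the related lists are not reported here. Named were the catalytic, immunoproteasome and PA28 genes, the 2 genes with the smallest p in each other role class and up to 4 in each related list; other members named were chosen after their values were seen.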

Additional observations from a re-analysis of the deposited data

How the results depend on the processing

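The median log2 fold change of the members was below 0 under every alternative run, from -0.18 (without FLOXED 1) to -0.48 (without FLOXED 2), as were those of the 20S core (-0.18 to -0.57) and the 19S particle (-0.28 to -0.52). Members called lower numbered 0 with 4 libraries, 1 with DESeq2 and between 0 and 5 when a library was left out. Members lower at an unadjusted p under 0.05 numbered 24 with 4 libraries and between 2 (without PELP1 FBKO 1, with 3.26% of all genes) and 35 (without FLOXED 2, with 12.2%) when a library was left out. With the replicate block, which the labels do not tie to a shared animal or batch, 13 were lower at that p, with 4.86% of all genes. In that fit 0 members were called, though 11 interferon-induced and 6 heat shock genes were called lower, with 1.2% of all genes. Deviations of same-numbered libraries correlated at -0.12. With the numbers crossed, an alternative chosen after seeing the data, 30 members were lower at that p, with 8.27% of all genes. Again 0 members were called. The mean immunoproteasome ratio difference lay between -0.11 and 0.33 when a library was left out.

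Direction turned for some genes, among them Stat3 and Psma3, which had -0.31 and -0.22 with 4 libraries. With length and GC offsets, the log2 fold change was 0.081 for Psmb10, 0.047 for Psme1 and -0.021 for Uba6, and with upper-quartile factors it was 0.0058 for Psmf1. When a library was left out, values ranged from -0.73 to 0.27 for Psmb8, from -0.27 to 0.15 for Psmb10, from -0.22 to 0.14 for Psme1, up to 0.053 for Psmf1, from -0.73 to 0.0065 for Stat3 and from -0.055 to 0.14 for Uba6. Without FLOXED 1, values were also above 0 for Psma3 (0.14), Psmg1 (0.063), Psmg4 (0.18) and Psmc3ip (0.021), each below 0 with 4 libraries. The cause was not tested. Depth limits what can be said of Psma8, Psmb11 and Psmb9, which had few reads.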
